A study of Homo sapiens with 8 samples.

Results

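PolyADP-ribosylation (PARylation) is the attachment of chains of ADP-ribose to proteins, and 9 genes that write, direct or read these chains were followed through the RNA-seq libraries of an ovarian cancer cell line. The 9 genes were given by symbol as PARP1, PARP2, TNKS, TNKS2, HPF1 (also called C4orf27), XRCC1, APLF, CHD1L and RNF146. A row of the count tables was taken for each when its transcripts belonged to the gene, which gave 9 of the 20165 rows. OVCAR3 is a human high-grade serous ovarian carcinoma line, and 8 libraries were made from it, 2 in each of 4 groups. In siControl and siTARG1 the cells were transfected for 48 h with 30 nM of a control siRNA or of an siRNA against OARD1, the gene of TARG1, a hydrolase that removes mono-ADP-ribose (MAR) from proteins. In RACK1-WT and RACK1-Mut, OVCAR3 cells carrying lentiviral constructs were treated for 48 h with 1 µg/ml Dox, which turns on an shRNA against endogenous RACK1 and the re-expression of RACK1, either wild type or mutated at its MARylation sites. Both RACK1 groups therefore share Dox, the shRNA and antibiotic selection of the lines, and neither siRNA group carries them. Whether the antibiotics were still present in the sequenced cultures is not given in the sources used here. Whether the RACK1 lines are single clones is not given in the sources used here. The paper lists 2 siRNAs against TARG1, and the labels do not say which was sequenced. Effects of the siRNA other than the loss of OARD1 were not separated from that loss. All libraries came from total RNA of lysates that were also used for ribosome profiling.

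Among the writers, PARP1 and PARP2 are nuclear enzymes that bind broken DNA and build PAR chains, and HPF1 joins their active site so that serine is modified. TNKS and TNKS2, the tankyrases, build chains on partners such as the axins of the Wnt pathway, and RNF146 is a ubiquitin ligase that binds those chains and marks the modified proteins for degradation. XRCC1 is the scaffold of single-strand break repair, APLF is a histone chaperone that binds PAR and takes part in end joining, and CHD1L (ALC1) is a chromatin remodeler that PAR switches on. PARP1 and PARP2 are the targets of the PARP inhibitors used in ovarian cancer.

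The 250 bases before the RefSeq transcript start are shown for 3 of the genes whose mRNA differed between siTARG1 and siControl, to place the values next to the regulatory sequence of each gene. The RefSeq sequences were located by exact match in GRCh37, and each is written 5′ to 3′ on the strand of its gene. The PARP2 window is chr14:20811544-20811793 on the plus strand, and its last 20 bases lie inside the annotated gene. The TNKS2 window is chr10:93557933-93558182 on the plus strand, and the HPF1 window is chr4:170679096-170679345 on the minus strand. Capitals mark matches, on either strand, to TGACGTCA (the cyclic AMP response element), CACGTG (an E-box), CCAAT and GGGCGG (a GC box).
PARP2: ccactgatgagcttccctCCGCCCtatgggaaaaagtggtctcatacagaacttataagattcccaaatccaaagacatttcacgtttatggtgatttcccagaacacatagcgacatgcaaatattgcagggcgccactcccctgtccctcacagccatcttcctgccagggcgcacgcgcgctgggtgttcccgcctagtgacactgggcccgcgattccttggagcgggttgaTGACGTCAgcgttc
TNKS2: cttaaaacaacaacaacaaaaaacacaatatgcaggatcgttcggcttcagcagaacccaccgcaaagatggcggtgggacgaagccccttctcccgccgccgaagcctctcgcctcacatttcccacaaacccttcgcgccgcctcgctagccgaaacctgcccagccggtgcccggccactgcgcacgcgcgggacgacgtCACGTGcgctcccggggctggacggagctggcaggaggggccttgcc
HPF1: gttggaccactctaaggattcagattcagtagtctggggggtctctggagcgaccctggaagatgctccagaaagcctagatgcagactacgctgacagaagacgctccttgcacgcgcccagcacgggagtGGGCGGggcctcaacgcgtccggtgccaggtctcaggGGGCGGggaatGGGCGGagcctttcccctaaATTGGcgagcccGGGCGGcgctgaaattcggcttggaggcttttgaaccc
The PARP2 window held 1 TGACGTCA, which begins 14 bases before the start, and 1 GC box. The TNKS2 window held 1 CACGTG, beginning 47 bases before the start, and none of the other motifs. The HPF1 window held 4 GC boxes and 1 CCAAT, and no TGACGTCA or CACGTG. None of the motifs was thus common to these 3 windows. TNKS and XRCC1 also differed between siTARG1 and siControl, but their windows were not examined. Nothing follows for the differing genes as a set. Of 34788 RefSeq promoter windows of this length, 1.64% held TGACGTCA, 6.31% CACGTG, 32.0% CCAAT and 42.6% GGGCGG. A match describes the letters and was not tested as a binding site.

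Exon counts per library ranged from 30989049 to 42668783, and 14024 rows were tested. All 9 genes passed the filter on low counts. OARD1 was at 50.3 ± 2.46 CPM (exon counts on a common scale of library size, SD, n = 2) in siControl and 3.54 ± 0.614 (SD, n = 2) in siTARG1. The 3′ UTR of RACK1 was at 319 ± 36.2 CPM (SD, n = 2) in siControl, 17.3 ± 2.32 (SD, n = 2) in RACK1-WT and 17.4 ± 2.15 (SD, n = 2) in RACK1-Mut. The 10 ovarian carcinoma epithelium markers examined were all above 1 CPM in every group, and their summed level was 2667 to 2780 CPM in siTARG1 and 3966 to 4323 CPM in the other groups. The 5 leukocyte markers summed to at most 3.5 CPM, with CD3E at 0, and the 5 fibroblast markers to at most 9.36 CPM. The labels do not say whether the replicates came from separate cultures. The paper states in general that its sequencing experiments were repeated at least 2 times on independent biological samples. The p-values measure the spread between these libraries.

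PARP1 was the most abundant of the 9 mRNAs per length in every group and APLF the least. PARP1 (ENSG00000143799, chromosome 1, 226547911 to 226595855 on the minus strand of GRCh37) was at 34.2 CPM per kilobase of exon in siControl and HPF1 (ENSG00000056050, chromosome 4, 170650621 to 170679095, minus strand) at 28.7. CHD1L (ENSG00000131778, chromosome 1, 146714304 to 146767446, plus strand) followed at 20.5 CPM per kilobase. TNKS2 (ENSG00000107854, chromosome 10, 93558183 to 93625232, plus strand) was at 17.7 CPM per kilobase and TNKS (ENSG00000173273, chromosome 8, 9413422 to 9639856, plus strand) at 8.40. The writers of this set therefore spread from the top to the lower end of the order in siControl. RNF146 (ENSG00000118518, chromosome 6, 127587871 to 127609712, plus strand) was at 12.02 CPM per kilobase and XRCC1 (ENSG00000073050, chromosome 19, 44047463 to 44084625, minus strand) at 10.3. PARP2 (ENSG00000129484, chromosome 14, 20811774 to 20826063, plus strand) was at 5.01 CPM per kilobase, and APLF (ENSG00000169621, chromosome 2, 68694704 to 68882994, plus strand) at 0.0947. The counts of APLF were 10 to 65 per library, so its values carry the largest counting error of the set.

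The order of the middle genes differed between groups. In siControl the ranges of neighbours did not overlap at any step. In siTARG1, TNKS2 stood second at 25.7 CPM per kilobase, and the ranges of CHD1L and HPF1 overlapped, as did those of TNKS and RNF146. In RACK1-WT, PARP2 was at 16.6 CPM per kilobase and its range overlapped that of CHD1L, while XRCC1 and RNF146 also overlapped. In RACK1-Mut no neighbours overlapped, and PARP2 stood below CHD1L. The highest level was 362 times the lowest in siControl, 291 times in siTARG1, 132 times in RACK1-WT and 149 times in RACK1-Mut.

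**Figure D1:**
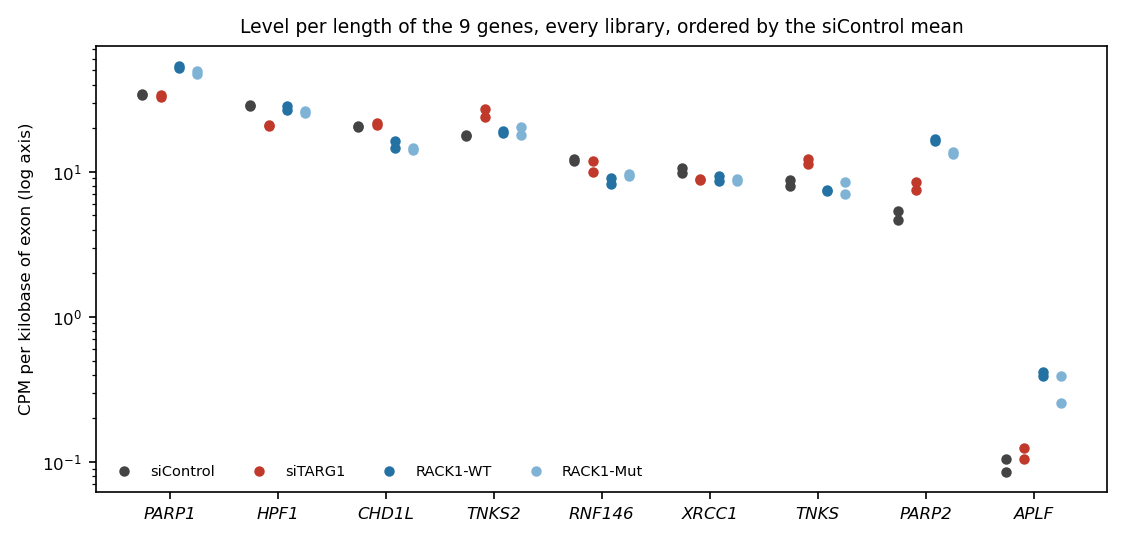
CPM per kilobase of exon (log axis) of the 9 genes in each of the 8 libraries, with 1 point per library and 1 colour per group, ordered by the siControl mean. PARP1 is highest and APLF lowest in every group, and PARP2 lies at 5.01 in siControl and 16.6 in RACK1-WT.

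The first comparison asked how the 9 mRNAs differed after depletion of the MAR hydrolase TARG1. PARP2 and both tankyrases were higher in siTARG1 than in siControl, by 1.4 to 1.6-fold, and HPF1 and XRCC1 were lower, while PARP1, CHD1L, APLF and RNF146 did not pass the test. Thus 3 of 9 genes were called higher and 2 of 9 lower, beside 23.5% of all rows called higher and 23.1% called lower. The share called was therefore near the background, and the genes are described one by one. The median log2 fold change was 0.057 over the 9 genes and 0.0073 over all rows. In bulk RNA, fewer cells of a type and less RNA per cell cannot be told apart.

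PARP2 was at 8.88 and 10.3 CPM in the siControl libraries and at 14.5 and 16.3 in the siTARG1 libraries. Both siTARG1 libraries lay above both siControl libraries. The log2 fold change was 0.68 (SE 0.10), a 1.61-fold difference, and edgeR's quasi-likelihood test gave an adjusted p of 9.6e-05. PARP1, which shares its reaction and its inhibitors with PARP2, was at 134 and 137 CPM in siControl and at 133 and 130 in siTARG1. Its log2 fold change was -0.040 (95% interval -0.18 to 0.098, adjusted p = 0.64, edgeR). Within a library, the PARP1 level per length was 6.88 ± 0.65 times that of PARP2 in siControl (SD, n = 2) and 4.18 ± 0.40 times in siTARG1 (SD, n = 2).

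The tankyrases were higher together. TNKS2 was at 110 and 108 CPM in siControl and at 148 and 168 in siTARG1, a log2 fold change of 0.53 (SE 0.080, adjusted p = 9.8e-05, edgeR). TNKS was at 84.3 and 77.4 CPM in siControl and at 117 and 109 in siTARG1, a log2 fold change of 0.48 (SE 0.088, adjusted p = 4.7e-04, edgeR). For neither gene did the groups overlap. The ratio of TNKS2 to TNKS per length was 2.12 ± 0.10 in siControl (SD, n = 2) and 2.19 ± 0.32 in siTARG1 (SD, n = 2), and the ranges of the ratio overlapped. TNKS and TNKS2 are paralogs and the authors' alignment kept reads with many matches, so some reads may be shared between the rows.

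HPF1 was at 35.2 and 35.4 CPM in siControl and at 25.7 and 25.6 in siTARG1. The replicates of each group lay close together and the groups were well apart. HPF1 fell by 0.46 on the log2 scale (SE 0.076), to 72.7% of its siControl level, with an adjusted p of 2.0e-04 (edgeR). The ratio of PARP1 to HPF1 per length was 1.19 ± 0.012 in siControl (SD, n = 2) and 1.60 ± 0.020 in siTARG1 (SD, n = 2).

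Of the readers, XRCC1 was at 27.7 and 30.0 CPM in siControl and at 24.5 and 25.04 in siTARG1, with no overlap. Its log2 fold change was -0.22 (SE 0.084, adjusted p = 0.045, edgeR), and the call was lost when any of the 4 libraries was left out (adjusted p 0.060 to 0.28) and with DESeq2 (adjusted p = 0.083). The XRCC1 row also holds an overlapping gene on the same strand, ENSG00000268361. CHD1L was at 61.4 and 60.1 CPM in siControl and at 64.5 and 61.9 in siTARG1, a log2 fold change of 0.057 (95% interval -0.10 to 0.22, adjusted p = 0.56, edgeR). RNF146 was at 35.3 and 34.4 CPM in siControl and at 28.8 and 34.7 in siTARG1, so that the groups overlapped. Its log2 fold change was -0.14 (95% interval -0.34 to 0.066, adjusted p = 0.26, edgeR), and it was called lower when siTARG1 replicate 2 was left out (-0.29, adjusted p = 0.021). APLF had 16 and 10 counts in siControl and 17 and 20 in siTARG1. The interval of its log2 fold change, -0.58 to 1.09, was too wide to show a difference at this depth (adjusted p = 0.63, edgeR).

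**Figure D2:**
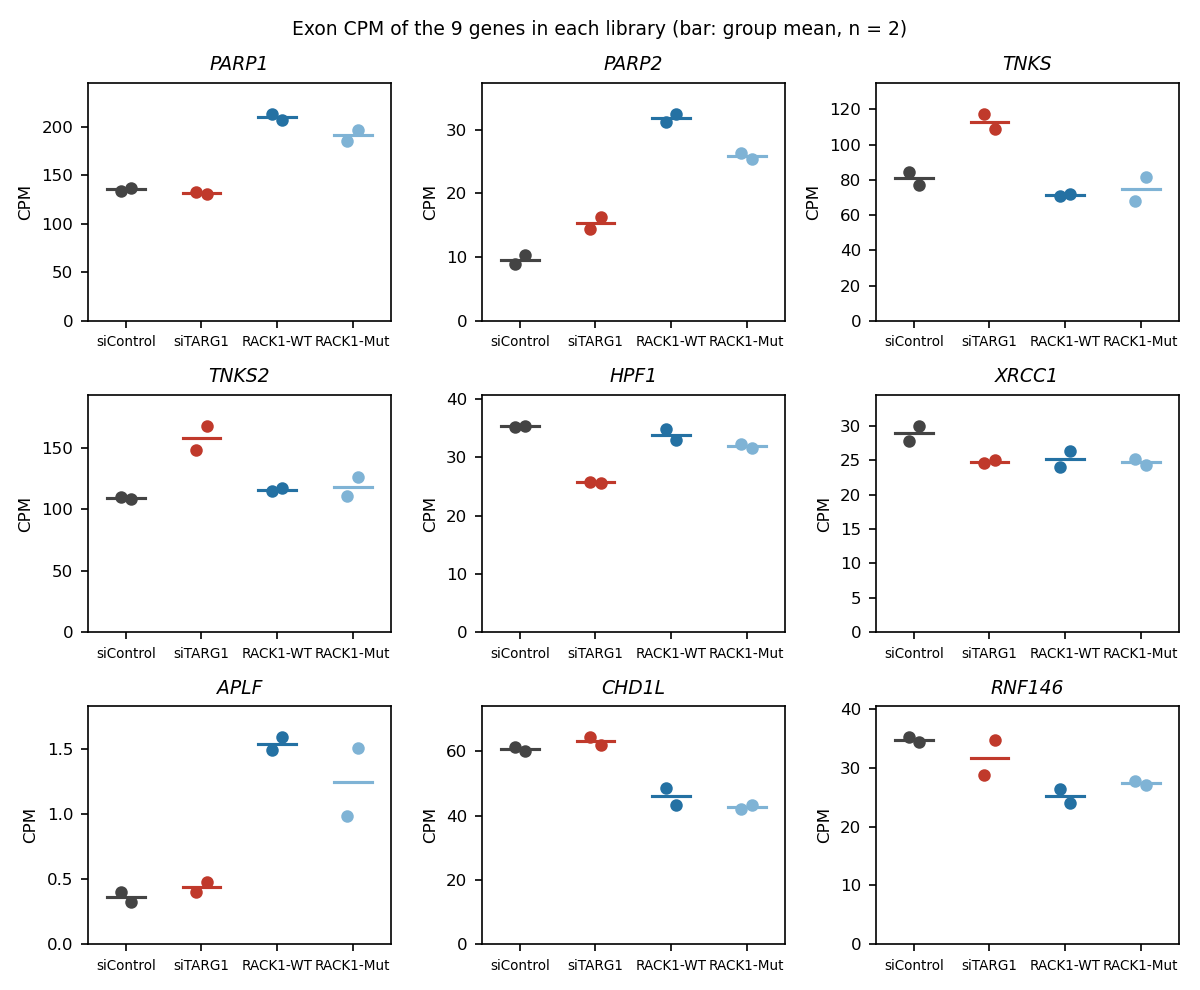
CPM on a linear axis from 0 for each of the 9 genes, with 1 point per library and a bar at the mean of each group (n = 2). PARP2, TNKS and TNKS2 sit higher in siTARG1 than in siControl and HPF1 sits lower, while PARP1, PARP2 and APLF are highest in the RACK1-WT and RACK1-Mut libraries.

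The coding sequence and the 3′ UTR of these genes were also counted separately. For TNKS2 the log2 ratio of siTARG1 to siControl was 0.53 in the coding sequence and 0.56 in the 3′ UTR, and for TNKS these ratios were 0.47 and 0.50. PARP2 had ratios of 0.66 and 0.91, the latter over a 3′ UTR of 108 bases with 15 to 81 counts. HPF1 had ratios of -0.47 and -0.38. Each of these 4 genes thus differed in the same direction in both regions. In XRCC1 the coding sequence had a ratio of -0.21, and the 3′ UTR held only 5 to 8 counts per library.

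The next comparison, of RACK1-Mut with RACK1-WT, asked whether the MARylation sites of RACK1 bear on the same mRNAs. Total RACK1 mRNA was at 4569 ± 74.6 CPM in siControl (SD, n = 2), 1830 ± 95.7 in RACK1-WT (SD, n = 2) and 1426 ± 40.3 in RACK1-Mut (SD, n = 2), with no overlap between the RACK1 groups. The log2 fold change of RACK1-Mut to RACK1-WT was -0.36 (SE 0.076, unadjusted p = 3.3e-04, adjusted p = 0.30, edgeR), and the part of this level in the values of the 9 genes was not tested. None of the 9 genes was called with edgeR or with DESeq2, and 1 had an unadjusted p under 0.05 with edgeR. Over all rows, 0.00713% were called, which is 1 row of 14024, and 687 rows had an unadjusted p under 0.05. PARP2 was at 31.2 and 32.5 CPM in RACK1-WT and at 26.3 and 25.4 in RACK1-Mut. The groups did not overlap, and its log2 fold change was -0.30 (SE 0.092), with an unadjusted p of 0.0055 and an adjusted p of 0.69 (edgeR).

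APLF was at 1.49 and 1.60 CPM in RACK1-WT and at 0.987 and 1.51 in RACK1-Mut, so that the groups overlapped. Its log2 fold change was -0.30, of the size of that of PARP2, with a 95% interval of -0.83 to 0.22 (adjusted p = 0.998, edgeR). PARP1 was at 213 and 207 CPM in RACK1-WT and at 186 and 197 in RACK1-Mut, a log2 fold change of -0.14 (95% interval -0.27 to 0.00091, adjusted p = 0.998, edgeR), with no overlap. TNKS was at 70.6 and 72.2 CPM in RACK1-WT and at 67.9 and 81.9 in RACK1-Mut, and the groups overlapped. TNKS2 was at 115 and 117 CPM in RACK1-WT and at 111 and 126 in RACK1-Mut, again with overlap. The 95% intervals of the log2 fold change were -0.12 to 0.26 for TNKS, -0.14 to 0.20 for TNKS2, -0.25 to 0.077 for HPF1 and -0.21 to 0.16 for XRCC1. They were -0.27 to 0.061 for CHD1L and -0.080 to 0.33 for RNF146. These intervals bound the differences that 2 libraries per group leave possible and do not show that the levels were equal.

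The effects of the siRNA and of the RACK1 mutation share no library, so their difference could be tested. It passed the test for PARP2 (0.98 on the log2 scale, adjusted p = 9.9e-05, edgeR), TNKS2 (0.50, adjusted p = 0.0038), TNKS (0.41, adjusted p = 0.021) and HPF1 (-0.38, adjusted p = 0.015). These are 4 of 9 genes, beside 32.4% of all rows. The call for TNKS was lost without siControl replicate 2, RACK1-WT replicate 1, RACK1-WT replicate 2 or RACK1-Mut replicate 1 (adjusted p 0.054 to 0.11), and that for HPF1 without RACK1-WT replicate 2 (0.081) or RACK1-Mut replicate 1 (0.053). RNF146 was called without siTARG1 replicate 2 (-0.41, adjusted p = 0.016).

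**Figure D3:**
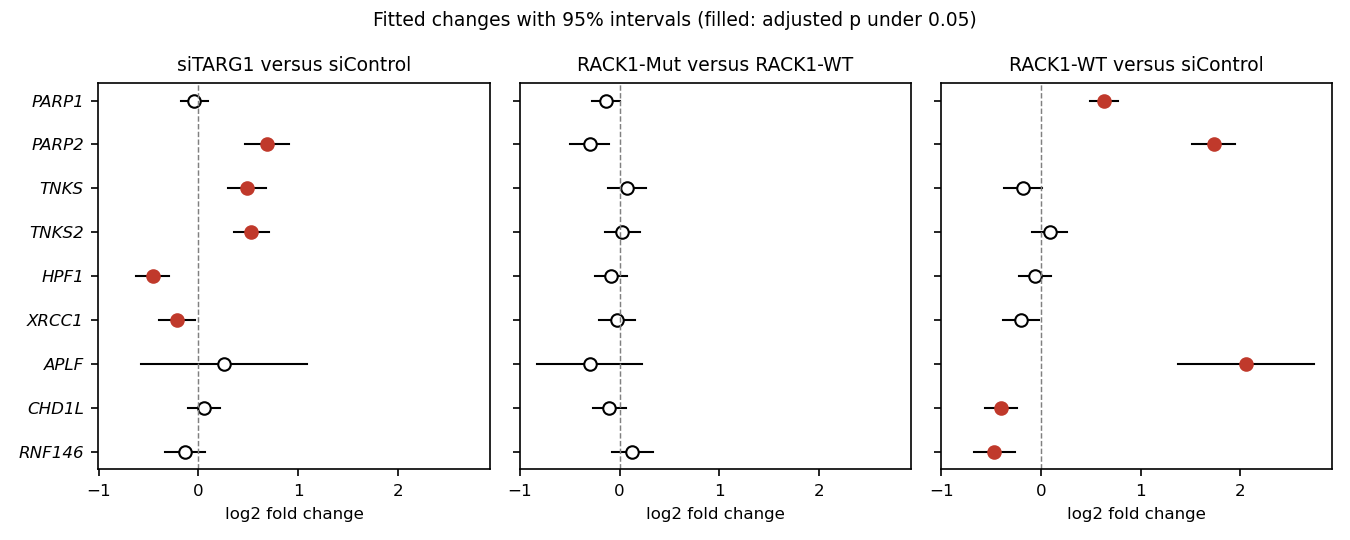
Log2 fold changes of the 9 genes with 95% intervals in 3 comparisons, with filled points for an adjusted p under 0.05. siTARG1 against siControl has 5 filled points, RACK1-Mut against RACK1-WT has none, and RACK1-WT against siControl has 5, of which APLF at 2.06 and PARP2 at 1.73 are farthest from 0.

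RACK1-WT was set beside siControl to describe the levels of the 9 genes across the 4 groups. The RACK1 line, Dox, the shRNA and the absence of siRNA transfection differ together here and cannot be told apart, and the siControl libraries are those of the first comparison. The share of alignments on exons was 38.4% to 47.6% in the siRNA libraries and 51.4% to 56.2% in the RACK1 libraries, and its part in the differences was not tested. The damage-responsive writers PARP1 and PARP2 and the reader APLF were higher in RACK1-WT, CHD1L and RNF146 were lower, and TNKS, TNKS2, HPF1 and XRCC1 did not pass the test. That is 3 of 9 called higher and 2 of 9 lower, beside 31.9% and 31.4% of all rows. The share called was again near the background. The median log2 fold change was -0.061 over the 9 genes and -0.016 over all rows.

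PARP2 was at 8.88 and 10.3 CPM in siControl and, as given above, at 31.2 and 32.5 in RACK1-WT, far outside the spread of either group. The log2 fold change was 1.73 (SE 0.10), or 3.33-fold (adjusted p = 3.8e-09, edgeR). PARP1 had a log2 fold change of 0.63 (SE 0.065), or 1.55-fold (adjusted p = 1.2e-06, edgeR), and its groups did not overlap. The ratio of PARP1 to PARP2 per length was 3.20 ± 0.15 in RACK1-WT (SD, n = 2) and 3.59 ± 0.23 in RACK1-Mut (SD, n = 2), below both siRNA groups. PARP1 has 2 annotated pseudogenes, PARP1P1 and PARP1P2, and reads shared with them were not separated.

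APLF had 47 and 56 counts in RACK1-WT against 16 and 10 in siControl, which are 1.49 and 1.60 CPM against 0.401 and 0.327. The log2 fold change was 2.06 (SE 0.32), with an adjusted p of 6.6e-05 (edgeR). In RACK1-Mut the APLF libraries were at 0.987 and 1.51 CPM, also above both siRNA groups. CHD1L was at 48.6 and 43.4 CPM in RACK1-WT, below both siControl libraries, and fell by 0.40 on the log2 scale (SE 0.076, adjusted p = 3.7e-04, edgeR). RNF146 was at 26.4 and 24.001 CPM in RACK1-WT, likewise below both siControl libraries, and fell by 0.47 (SE 0.096, adjusted p = 7.2e-04, edgeR). The called readers thus went in both directions, as did all rows, of which 31.9% were called higher and 31.4% lower. The mixed directions are therefore not particular to the readers.

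The remaining genes did not pass the test in RACK1-WT against siControl. TNKS had a log2 fold change of -0.18 (95% interval -0.37 to 0.012, adjusted p = 0.093, edgeR), and was called lower when only the 4 libraries of the comparison were fitted (adjusted p = 0.044). TNKS2 had 0.087 (95% interval -0.087 to 0.26), HPF1 -0.061 (-0.22 to 0.10) and XRCC1 -0.20 (-0.38 to -0.014, adjusted p = 0.057, edgeR). The XRCC1 interval lay wholly on the lower side. Its mean was 28.9 CPM in siControl, 24.8 in siTARG1, 25.2 in RACK1-WT and 24.8 in RACK1-Mut, so its lower level was not particular to siTARG1. The ratio of PARP1 to HPF1 per length was 1.93 ± 0.037 in RACK1-WT (SD, n = 2), and that of PARP1 to XRCC1 was 5.93 ± 0.49 (SD, n = 2) against 3.33 ± 0.14 in siControl (SD, n = 2).

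**Figure D4:**
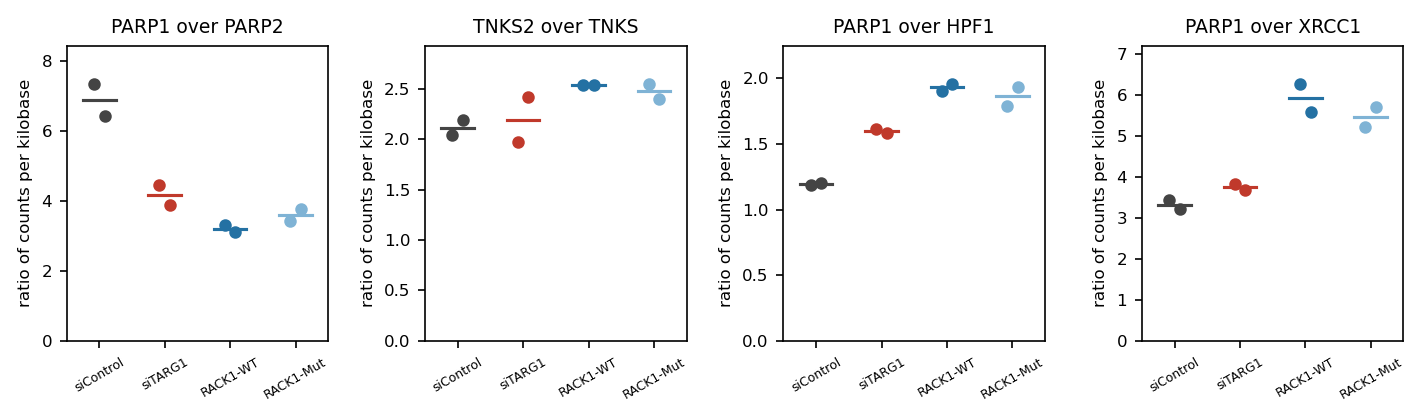
Ratios of counts per kilobase within each library for 4 pairs of the genes, on linear axes from 0, with 1 point per library and a bar at the group mean (n = 2). PARP1 over PARP2 goes from 6.88 in siControl to 4.18 in siTARG1 and 3.20 in RACK1-WT, and the group means of TNKS2 over TNKS lie between 2.12 and 2.54.

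The 5 rows whose log2 CPM was most like that of PARP1 over the 8 libraries, among 10824 rows compared, were LPCAT3, MALL, RBBP7, AKAP6 and IVNS1ABP, with Pearson's r between 0.995 and 0.998. IVNS1ABP was at 251 CPM in siControl and 503 in RACK1-WT, and LPCAT3 at 15.4 and 28.5. The libraries fall into 2 experiments of 4, so these values describe mainly the step between the experiments. Among the 9 genes, PARP2 had an r of 0.91 with PARP1 and CHD1L one of -0.92 over the same libraries.

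Genes that act next to the 9 were examined as lists, whose counts stand beside 23.5% of all rows called higher and 23.1% called lower in siTARG1 against siControl. In siTARG1 against siControl, the enzymes that remove PAR and MAR had 1 of 8 called higher and 1 lower. PARG, which cuts PAR chains, was at 32.3 ± 1.74 CPM in siControl (SD, n = 2) and 41.5 ± 1.66 in siTARG1 (SD, n = 2), a log2 fold change of 0.36 (adjusted p = 0.0018, edgeR), and the gene called lower was the targeted OARD1. Of 19 genes of single-strand break and base excision repair, 8 were called higher and 3 lower, which is 57.9% of the list, with a median log2 fold change of 0.17 beside 0.0073 over all rows. POLB, the polymerase that fills the gap, had a log2 fold change of 0.49 (adjusted p = 1.4e-04, edgeR) and the glycosylase UNG 0.45 (adjusted p = 1.5e-04), while the alkyl-base glycosylase MPG fell by 0.46 (adjusted p = 8.0e-04).

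Of 15 partners and substrates of the tankyrases, 6 were called higher in siTARG1 and 1 lower, with a median of 0.12, beside 23.5% and 23.1% of all rows. The share of the list called in either direction, 46.7%, was thus near the background. AXIN1, the scaffold of the β-catenin destruction complex, was at 46.1 ± 1.94 CPM in siControl (SD, n = 2) and 74.3 ± 6.68 in siTARG1 (SD, n = 2), a log2 fold change of 0.69 (adjusted p = 1.1e-05, edgeR). CASC3, a component of the exon junction complex, had 0.62 (adjusted p = 2.8e-05) and LNPEP, an aminopeptidase of insulin-responsive vesicles, 0.43 (adjusted p = 0.0011). Of 13 other PAR-binding proteins, none was called higher and 3 were called lower, 23.1% of the list, with a median of -0.084. Among all rows, 23.5% were called higher and 23.1% lower. These were the ubiquitin ligases HUWE1 (-0.32, adjusted p = 0.018, edgeR) and TRIP12 (-0.30, adjusted p = 0.0029), and the RNA-binding protein EWSR1 (-0.26, adjusted p = 0.0066). The call for HUWE1 was lost without siControl replicate 1 (adjusted p = 0.10) and that for EWSR1 without siControl replicate 2 (0.087).

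Of 13 other members of the PARP family, 11 were tested, and 2 were called higher in siTARG1 and 1 lower, beside 23.5% and 23.1% of all rows. PARP8 had a log2 fold change of 0.29 (adjusted p = 0.0060, edgeR), PARP4, the vault PARP, 0.28 (adjusted p = 0.0038) and PARP12 -0.24 (adjusted p = 0.010). The PARP8 call was lost without siControl replicate 1 (adjusted p = 0.069), and the PARP12 call without siControl replicate 1 (0.066) or replicate 2 (0.058). In RACK1-Mut against RACK1-WT no gene of any list was called.

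The lists were also counted in RACK1-WT against siControl, which shares the siControl libraries and in which 31.9% of all rows were called higher and 31.4% lower. Other PARP family members had 1 of 11 called higher and 6 lower, with a median of -0.29. The called genes of largest change were PARP12 (-1.54, adjusted p = 4.5e-10, edgeR), PARP9 (-1.17, adjusted p = 6.2e-09) and PARP14 (-1.08, adjusted p = 8.4e-08). Other PAR-binding proteins had 2 of 13 called higher and 8 lower, with a median of -0.31. CHFR, a mitotic checkpoint ubiquitin ligase that binds PAR, was at 18.9 ± 0.067 CPM in siControl (SD, n = 2) and 1.56 ± 0.221 in RACK1-WT (SD, n = 2), a log2 fold change of -3.59 (adjusted p = 8.6e-10, edgeR). TRIP12 fell by 1.07 on the log2 scale (adjusted p = 1.7e-08) and TAF15 by 0.72 (adjusted p = 7.3e-05).

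The repair genes had 3 of 19 called higher and 9 lower in RACK1-WT, with a median of -0.086, beside 31.9% and 31.4% of all rows. The share called in either direction, 63.2%, was near the background. PCNA, the sliding clamp, had a log2 fold change of 0.73 (adjusted p = 2.2e-06, edgeR), the glycosylase OGG1 0.68 (adjusted p = 4.7e-05) and MPG -0.64 (adjusted p = 3.5e-05). The tankyrase partners had 8 of 15 called higher and 3 lower, beside the same background, with a median of 0.21. CASC3 had a log2 fold change of 0.67 (adjusted p = 7.2e-06, edgeR) and PEX14, a peroxisomal import factor, 0.47 (adjusted p = 5.9e-04). The row of AXIN2, which also holds transcripts of other genes, was at 0.108 ± 0.0136 CPM in siControl (SD, n = 2) and 1.11 ± 0.261 in RACK1-WT (SD, n = 2). Its log2 fold change was 3.25 (SE 0.41, adjusted p = 1.0e-05, edgeR) on few counts.

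The removal enzymes had 2 of 8 called higher and 2 lower in RACK1-WT, with a median of -0.023, beside 31.9% and 31.4% of all rows. The MAR hydrolase MACROD2 was at 56.6 ± 4.70 CPM in siControl (SD, n = 2) and 131 ± 8.91 in RACK1-WT (SD, n = 2), a log2 fold change of 1.21 (adjusted p = 1.2e-07, edgeR). ADPRHL2 (ARH3), which removes ADP-ribose from serine, fell by 0.53 (adjusted p = 1.6e-04). NUDT16 (0.18, adjusted p = 0.022) and MACROD1 (-0.32, adjusted p = 0.031) were called, and the NUDT16 call was lost when any of the 4 libraries was left out (adjusted p 0.058 to 0.12). The MACROD1 call was lost without siControl replicate 1 (-0.20, adjusted p = 0.24) or RACK1-WT replicate 1 (-0.22, adjusted p = 0.22).

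**Figure D5:**
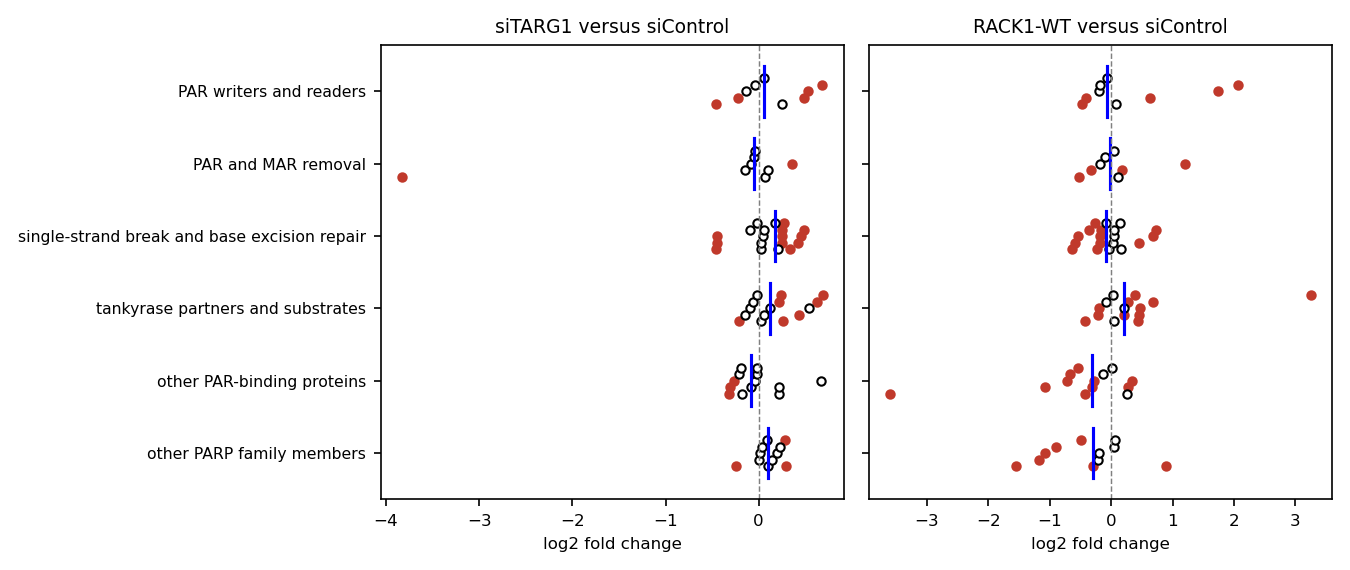
Log2 fold changes of the 9 genes and of 5 lists of neighbouring genes in siTARG1 against siControl and in RACK1-WT against siControl, which share the siControl libraries. Each point is a gene, filled where the adjusted p is under 0.05, and blue lines mark medians. The lone point far to the left is OARD1 (-3.83) in siTARG1 and CHFR (-3.59) in RACK1-WT.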

How the data were processed

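Strand-specific RNA-seq libraries of rRNA-depleted total RNA were made by the authors, 2 per group. The authors removed reads of rRNA and contaminants with Bowtie 1.1.2, mapped the others with TopHat2 2.1.1 to a transcriptome of GRCh37 with Gencode release 24, and counted alignments of 25 to 51 bases with Plastid. The deposited counts are estimated counts per row, not normalized and not whole, for exons, coding sequence and UTRs. RPKM, also deposited by the authors, scales counts by length and by all alignments. Reads with many matches were kept, so counts of paralogs and pseudogenes are uncertain. Exon counts were 30989049 to 42668783 per library. For most genes the small number of libraries, 2 in each group, limits the precision more than counting does.

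Rows name transcripts, and symbols and coordinates came from Gencode annotation of GRCh37, in which 94.9% of 36529 transcript names matched. Rows with no matched name, 553 of 20165, held 1.15% to 1.27% of counts and were kept in library sizes. Exon counts were rounded, normalised by TMM and filtered with filterByExpr. One mean was fitted for each group (4 residual degrees of freedom), and contrasts were tested by the quasi-likelihood F-test of edgeR 4.0.16 with limma 3.58.1 in R 4.3.3. This fit moderates the spread of each row toward that of the other rows. The SE and p-value of a gene therefore do not rest on its own replicates alone. P-values were adjusted by Benjamini-Hochberg over the 14024 rows tested, with a threshold of 0.05, and 95% intervals come from the same fit. CPM uses TMM library sizes. Replicates of a group differed by more than counting noise. Tables were made with Python 3.11.15, numpy 2.4.6 and pandas 2.3.3, and plots with matplotlib 3.10.9.

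The 9 genes and the lists were chosen with earlier results of these data known. Named were all 9 genes, the targeted genes, and of each list the genes past the threshold where 5 or fewer were, otherwise the 3 with the largest absolute change. The 5 rows most like PARP1 were those with the highest Pearson's r of log2(CPM + 0.1) among rows with a mean of at least 100 counts in each group. Alternatives were DESeq2 1.42.0 (which the study names), RLE, no filter, at least 10 counts in every library, a replicate block, rows summed by symbol, coding-sequence counts, only the 4 libraries of a comparison, leaving out each library, and RPKM for the order of levels. ENPP1 had no row and was not analysed here. Promoter windows were taken from RefSeq.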

Additional observations from a re-analysis of the deposited data

Results flagged for a closer look

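The effect of the TARG1 siRNA differed from that of the RACK1 mutation for 4 of the 9 genes, by the test of the difference of these effects in edgeR's quasi-likelihood fit, which was passed by 32.4% of all rows. The difference was 0.98 on the log2 scale for PARP2, which was higher in siTARG1 than in siControl (0.68) and lower in RACK1-Mut than in RACK1-WT without passing the test (-0.30). It was 0.50 for TNKS2 and 0.41 for TNKS, whose log2 fold changes in RACK1-Mut were 0.028 and 0.069, and -0.38 for HPF1, whose log2 fold change there was -0.085. The calls for PARP2 and TNKS2 held under every alternative run. Those for TNKS and HPF1 were lost when certain single libraries were left out, as given above. Cell line, Dox and transfection differ between the experiments and cannot be told apart from the treatments.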

How the results depend on the processing

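With 2 libraries per group, a call near the threshold rests on single libraries, and the counts of APLF (10 to 65) limit what can be said of it. For the 9 genes, the number called higher in siTARG1 was 3 under every alternative run, and the number called lower was 2, or 1 with DESeq2, with coding-sequence counts and with only the 4 libraries of the comparison. Leaving out 1 library at a time gave 1 to 2. The gene lost in these settings was XRCC1 (adjusted p = 0.066 with coding-sequence counts and 0.087 with 4 libraries), except that without siTARG1 replicate 2 XRCC1 was lost (0.060) and RNF146 was called. The rows called in RACK1-Mut against RACK1-WT were 1, and 15 with no filter on low counts, 0 with at least 10 counts in every library, 2 with coding-sequence counts, 49 with only the 4 libraries, 17 with DESeq2 and 0 to 1 with 1 library left out, with none of the 9 genes among them. With the replicate number as a block that count was 3, and the counts of the 9 genes called in each comparison stayed at 3 higher and 2 lower, 0, 3 higher and 2 lower, and 3 higher and 1 lower. The block was 1 term common to the 4 groups. It could not take up a replicate difference shared within only 1 experiment, so the unchanged counts do not settle whether such pairing matters. The difference of replicate 1 from replicate 2 in log2 CPM was compared between groups over the rows. Pearson's r of these differences was 0.26 for siControl with siTARG1 and 0.028 for RACK1-WT with RACK1-Mut. Between an siRNA group and a RACK1 group it ran from -0.10 to -0.033. No label pairs the libraries. With 1 library left out, the log2 fold change in RACK1-Mut ran from -0.072 to 0.20 for TNKS, from -0.068 to 0.12 for TNKS2 and from -0.087 to 0.042 for XRCC1, so none of these has a direction. In the difference of the effects, the number of the 9 genes called lower ran from 0 to 2 with 1 library left out. The causes were not tested. The order of levels per length was the same with the deposited RPKM in all 4 groups. Both measures scale the same counts by the same lengths, so the order within a library could not differ. RLE, summed rows and the other alternatives changed no call of the 9 genes beyond those named here and in the report.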
